A study of Mus musculus with 4 samples.

Results

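Wnt ligands, the Frizzled receptors that bind them and the co-receptors Lrp5 and Lrp6 make up the outer part of the Wnt pathway, and their DNA methylation was compared between E3 and control (CT) mice. The members were chosen by name: 19 Wnt ligand genes (Wnt1 to Wnt16), 10 Frizzled genes (Fzd1 to Fzd10) and 2 co-receptor genes, together 31 of the 39086 RefSeq genes on the main mouse chromosomes. The rule used no measured value. Every library came from wild type female CD-1 mice, an outbred stock, whose labels give an age of 8 weeks. Their mothers were given as 8 weeks old and carried an osmotic pump for 7 days from day 9 of gestation. The pump was filled with 50 µl of estriol (E3, an estrogen of pregnancy) at 0.46 mg/ml in DMSO, or with DMSO alone for CT. DNA of the frontal cortex and of the hippocampus was read by Methyl-MiniSeq, a bisulfite method that covers cytosines near the places where TaqαI and MspI cut. Each tissue had 1 E3 and 1 CT library, so every test below compares 2 libraries and has no replicate check. Whether a library held DNA of 1 mouse or several is not given in the sources used here, and differences between animals and between treatments cannot be told apart. No RNA was measured in these libraries, and the tissue labels could not be checked against marker genes.

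Wnt ligands are secreted lipid-modified proteins. They bind a Frizzled, a receptor that spans the membrane repeatedly, together with Lrp5 or Lrp6, and the receptor complex then keeps β-catenin from being degraded so that it can act with Tcf and Lef factors in the nucleus. Other Wnt-Frizzled pairs work without β-catenin on cell polarity and calcium. In the brain the pathway is known for patterning the cortex and the hippocampus, for the growth of axons and dendrites and for synapse formation. Most promoters of these genes are rich in CpG, the dinucleotide at which mammalian DNA is methylated.

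RefSeq promoter sequences (GRCm38.p6) of 300 bases could be matched for 21 of the 31 genes, with 24 promoters in all. They held between 4 and 58 CpGs with a median of 30, against a median of 7 over 32851 mouse promoters. An MspI site (CCGG) or a TaqαI site (TCGA, both palindromes) lay in 95.8% of the member promoters and in 60.5% of all promoters of the same length. All 3340 member CpGs measured in the hippocampus lay on a CG of the mm10 reference. The stretches printed here hold the hippocampus CpGs whose call, defined further on, was the same on both DNA strands with a difference of at least 50 points on 1 of them, shown for 6 of the 10 genes that have such a CpG; they were picked because large differences of ligands and receptors lie there. Each runs 5′ to 3′ on the strand of its gene in mm10, with 30 bases on either side, and capitals mark each CpG that was called on at least 1 strand.
Wnt3a chr11:59259430-59259491: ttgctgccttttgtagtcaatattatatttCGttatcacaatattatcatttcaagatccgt
Wnt5a chr14:28504037-28504098: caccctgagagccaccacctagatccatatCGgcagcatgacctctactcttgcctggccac
Wnt5b chr6:119449379-119449539: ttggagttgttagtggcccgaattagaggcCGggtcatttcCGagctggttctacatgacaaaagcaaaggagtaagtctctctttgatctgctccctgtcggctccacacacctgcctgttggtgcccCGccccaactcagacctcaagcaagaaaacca
Wnt6 chr1:74784426-74784577: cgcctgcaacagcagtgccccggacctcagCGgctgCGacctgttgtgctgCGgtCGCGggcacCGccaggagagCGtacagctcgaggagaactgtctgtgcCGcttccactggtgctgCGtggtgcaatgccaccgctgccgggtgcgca
Wnt7b chr15:85576213-85576330: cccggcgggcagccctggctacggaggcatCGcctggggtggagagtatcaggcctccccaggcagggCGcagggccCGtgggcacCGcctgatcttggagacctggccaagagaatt
Fzd9 chr5:135249652-135249775: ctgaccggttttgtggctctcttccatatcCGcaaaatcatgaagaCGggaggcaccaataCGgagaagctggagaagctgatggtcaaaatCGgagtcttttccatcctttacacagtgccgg
The Wnt3a stretch, from an intron, was the poorest in G and C with 29.0%. The Wnt6 stretch, from a coding exon, reached 68.4% and the intron stretch of Wnt7b 69.5%. Fzd9 is shown in a coding exon. Wnt5a lies upstream of the gene start, and Wnt5b at the start of a curated transcript within the gene.

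In the hippocampus, methylation rose at 160 and fell at 252 of the 4681 CpG sites measured in the members. A site is a cytosine on 1 strand with at least 5 reads in both libraries. The call required 10 points or more between the libraries and p under 0.05, without adjustment, from a 2-sided Fisher's exact test on methylated and unmethylated reads. The called share was 3.42% higher and 5.38% lower, where over all 2226271 sites 6.18% were higher and 4.83% lower, and over the sites of protein-coding gene windows 5.13% were higher and 4.70% lower. Member sites were read at a median depth of 25 reads in E3 and 10 in CT, against 27 and 9 over all sites. The mean level barely moved, at 22.4% in E3 and 22.7% in CT. Of the member sites, 64.1% had a mean level of both libraries under 10%, against 33.8% of all sites. Within classes of like level, 10.2% of member sites between 10 and 30% were higher and 21.6% lower, against 15.2% and 12.99% of all sites. Between 30 and 70% the member shares were 17.7% and 22.98%, against 24.6% and 14.1% of all sites, and between 70 and 90% they were 11.5% and 14.5% against 11.1% and 12.2%. Under 10% they were 0.233% and 0.367% against 0.156% and 0.325%, and from 90% up 0.193% and 0.967% against 0.354% and 0.402%.

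The called sites carried large differences on few reads. The 160 sites called higher had a median level of 76.8% in E3 and 9.76% in CT, from median depths of 30 and 12 reads, and 72 of them had no methylated read in CT. The 252 sites called lower had medians of 5.26% in E3 and 60% in CT, and 103 of them had none in E3. In each direction 6 sites stood at 0% in one library and 100% in the other. At 58 of the higher and 90 of the lower sites the CT library had under 10 reads.

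All 31 genes had at least 1 called site. In 18 genes more sites were called lower than higher, in 11 more were called higher, and in Wnt2b and Wnt11 the numbers were equal. The share of called sites ran from 1.1% in Wnt1 to 15% in Wnt8a, with a median of 8.62%. Of the 56 other genes of the pathway, described further on, 55 had at least 1 called site. More sites were lower in 24 of the 56, more were higher in 28, and the numbers were equal in 4. These counts were not made over all genes.

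**Figure D1:**
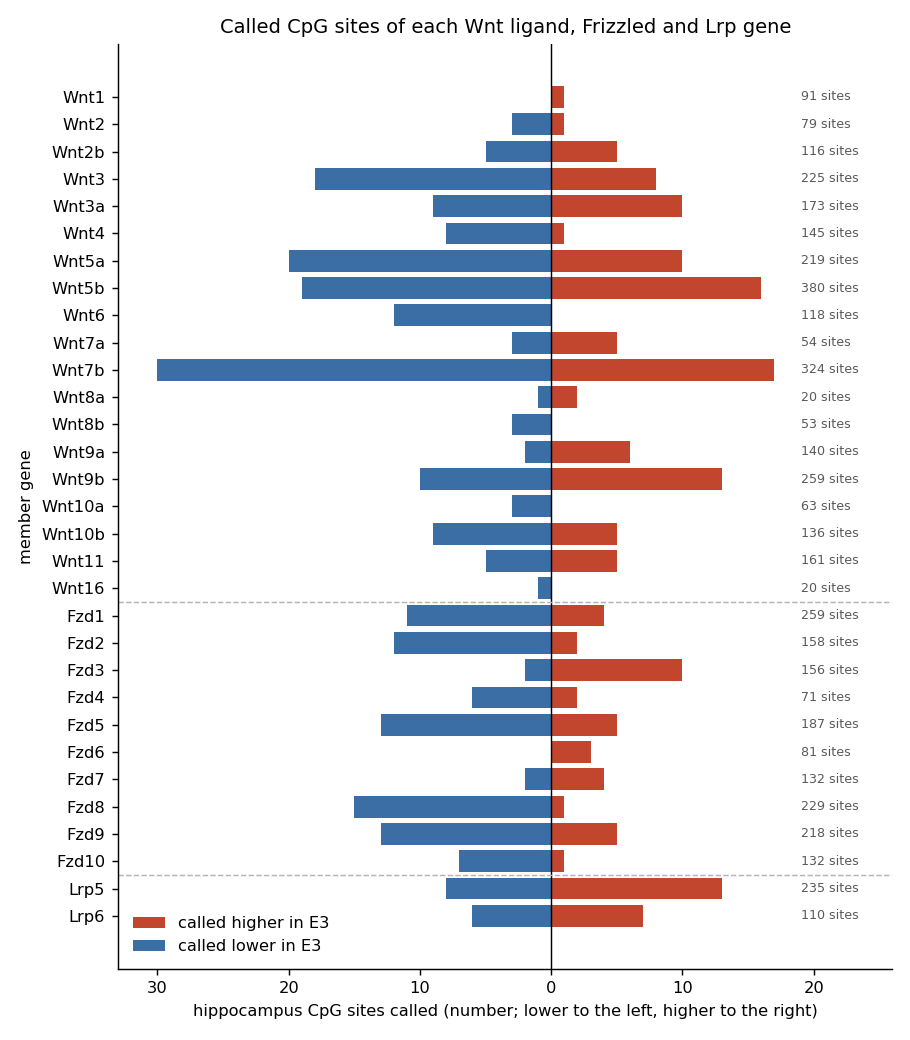
Number of hippocampus CpG sites called lower (blue, to the left) and higher (red, to the right) in E3 for each of the 31 genes, with the number of measured sites at the right. Dashed lines part ligands, Frizzled receptors and co-receptors; Wnt7b had the longest bars, with 30 sites lower and 17 higher.

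Near the gene starts, few member sites were called and most of those were lower in E3. Within 1 kb of the transcription start site (TSS), 11 of 1959 member sites were called higher and 67 lower (0.56% and 3.42%), and over all sites within 1 kb of a TSS 1.53% were higher and 3.66% lower. CT was the shallower library, so reads were thinned, as an alternative chosen after seeing the data, to 10 in both libraries at the 917 of these sites that had at least 10 in both. There the calls went from 10 higher and 47 lower to 4 higher and 9 lower (0.436% and 0.981%). The thinned share over all sites within 1 kb of a TSS was not computed. Over all 2230 member sites with that depth the calls went from 101 higher and 159 lower to 30 and 45 (1.35% and 2.02%). Thinned calls over all sites of that depth were 2.66% higher and 2.06% lower.

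Among the ligands, 103 of 2713 sites rose and 157 fell (3.80% and 5.79%), at a mean level of 25.1% in E3 and 25.4% in CT. Wnt7b, a ligand used in cortical and vascular development of the brain, had the most called sites of any member, with 17 of 324 higher and 30 lower. Its leading CpG, in an intron 5578 bases after the TSS, fell on both strands. The plus strand had 11.8% of 34 reads methylated in E3 and 94.4% of 18 in CT (difference -82.7 points, p = 4.38e-09, Fisher's exact test). The minus strand had 5% of 40 reads in E3 and 95.5% of 22 in CT (p = 2.88e-13, Fisher's exact test). These read numbers were 2 times those of the CpG 18 bases nearer to the TSS in both libraries, and with that neighbour's numbers the p was 0.000234 on the plus and 2.61e-06 on the minus strand (Fisher's exact test, an alternative chosen after seeing the data). The CpG 9 bases nearer to the TSS is capitalised too, but for the plus strand alone: 5.88% of 34 reads against 100% of 16 there (p = 3.11e-11, Fisher's exact test), and 0% in both libraries on the minus strand.

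Wnt3a, a ligand needed to form the hippocampus, had 10 sites higher and 9 lower of 173. The CpG with the smallest p of all member sites lay in its intron, 31291 bases after the TSS. On the plus strand it was methylated in 100% of 66 reads in E3 (95% Wilson interval 94.5 to 100) and in 0% of 42 in CT (interval 0 to 8.38; p = 5.77e-31 in Fisher's exact test). On the minus strand it stood at 83.3% of 24 reads against 0% of 26 (p = 2.25e-10, Fisher's exact test). The neighbours did not share this change: the CpG 29 bases further from the TSS had 100% in both libraries on the plus strand, and a CpG nearer to the TSS, 31200 bases from it, had 100% in both. At the changed CpG each library had 2 times the reads of that plus-strand neighbour (66 against 33 in E3, 42 against 21 in CT). With the neighbour's read numbers the p was 1.92e-15 in Fisher's exact test, an alternative chosen after seeing the data. A coding-exon site of Wnt3a, 40884 bases after the TSS, had 100% of 20 reads in E3 and 0% of 10 in CT on the minus strand (p = 3.33e-08, Fisher's exact test), while the other strand of that CpG had 89.3% and 90%.

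**Figure D2:**
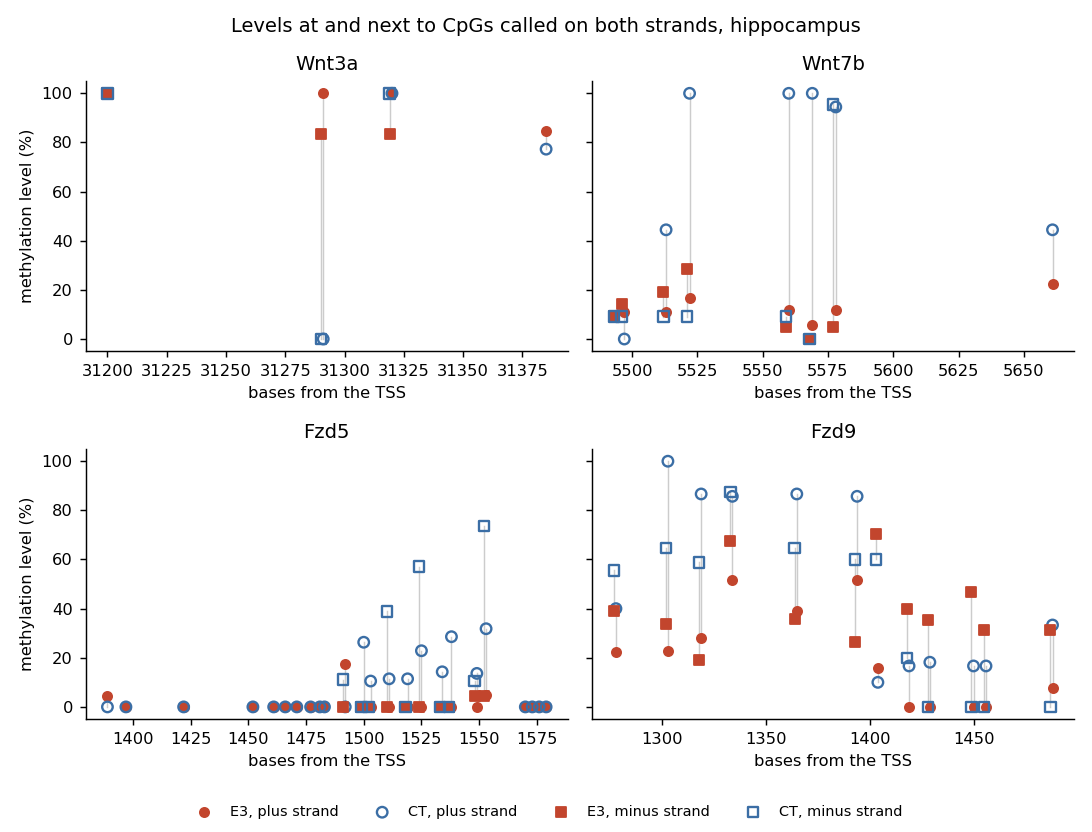
Methylation level (%) against distance from the TSS (bases) for each measured strand around the leading CpGs of Wnt3a, Wnt7b, Fzd5 and Fzd9 in the hippocampus, with filled red marks for E3, open blue marks for CT, circles for the plus strand and squares for the minus strand. In Wnt3a a lone CpG differed between neighbours near 100%, and in Wnt7b several CpGs differed on 1 strand and not on the other.

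Wnt5b and Wnt5a are ligands that act mostly without β-catenin. Wnt5b had 16 sites higher and 19 lower of 380. The CpG at the start of its inner transcript fell on both strands, from 100% of 6 reads in CT to 34.5% of 29 in E3 on the plus strand (p = 0.00493, Fisher's exact test), and from 95% of 20 to 16.7% of 18 on the minus strand (p = 9.59e-07, Fisher's exact test). It is the last capital CG of the Wnt5b stretch. A pair of Wnt5b intron CpGs, 1283 and 1392 bases after the gene start, also fell on both strands, the first from 50% of 24 reads in CT to 4.84% of 62 in E3 on the plus strand. Wnt5a had 10 sites higher and 20 lower of 219. Its CpG at -476 bases rose on both strands, with 61.5% of 26 reads in E3 and 0% of 7 in CT on the plus strand (p = 0.00723, Fisher's exact test) and 53.5% of 43 against 0% of 14 on the minus strand (p = 0.000285, Fisher's exact test). The CpG 57 bases further upstream stood at 57.7% in E3 and 57.1% in CT.

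Wnt3, a close relative of Wnt3a, had 8 sites higher and 18 lower of 225, 19 of them in introns. Its leading site, an intron cytosine 34946 bases after the TSS, had 5.26% of 38 reads in E3 and 100% of 6 in CT (p = 3.97e-06, Fisher's exact test), and its other strand was not measured at this depth. Wnt9b, known from kidney development, lies next to Wnt3, and the windows overlap. It had 13 sites higher and 10 lower of 259. A coding-exon cytosine of Wnt9b had 100% of 37 reads in E3 (90.6 to 100) and 0% of 8 in CT (interval 0 to 32.4; p = 4.64e-09 in Fisher's exact test). The other strand there was not measured either.

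Wnt6 had 12 sites lower and none higher of 118, and 11 of the 12 lay in a coding exon. With the reads of both strands summed, 1 Wnt6 CpG was called higher, at 20.8% of 48 reads in E3 and 0% of 20 in CT (p = 0.0276, Fisher's exact test). Wnt8b, Wnt10a and Wnt16 had no site higher either, among few called sites. Most of these sites lie in the printed stretch, which has 15 CpGs, 9 of them called. Both strands fell at the CpGs that lie 30120 and 30139 bases after the gene start. At the former, E3 had 0% of 52 reads on the plus strand and CT 66.7% of 6 (p = 3.54e-05, Fisher's exact test), and on the minus strand E3 had 0% of 40 and CT 35.7% of 28 (p = 4.51e-05, Fisher's exact test). The 40 and 28 reads of the minus strand were 2 times those of a neighbouring CpG, with whose numbers the p was 0.00719 (Fisher's exact test). CpGs of the stretch share their reads, so these calls are not separate observations.

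The other ligands, among them Wnt1 of midbrain patterning, Wnt4 of female sex development and Wnt16 of bone, had fewer than 15 called sites each. Wnt10b had 5 sites higher and 9 lower of 136, Wnt4 1 and 8 of 145, Wnt2b 5 and 5 of 116, Wnt11 5 and 5 of 161, Wnt9a 6 and 2 of 140 and Wnt7a 5 and 3 of 54. Wnt2 had 1 higher and 3 lower of 79, Wnt10a 0 and 3 of 63, Wnt8b 0 and 3 of 53, Wnt8a 2 and 1 of 20, Wnt16 0 and 1 of 20 and Wnt1 1 and 0 of 91. A Wnt7a coding CpG rose on both strands, with 100% of 92 reads in E3 and 54.5% of 22 in CT on the minus strand (p = 9.5e-09, Fisher's exact test) and 98.1% of 106 against 80% of 10 on the plus strand (p = 0.0368, Fisher's exact test). With the read numbers of neighbouring CpGs, again smaller by 2 times, the p was 0.00011 and 0.166 (Fisher's exact test). The Wnt7a CpG was chosen after its values were seen.

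The Frizzled genes, most of which have a short coding sequence close behind the promoter, had lower levels than the ligands, with means of 10.96% in E3 and 11.3% in CT. Of their 1623 sites 37 rose and 81 fell (2.28% and 4.99%). Within 1 kb of the TSS, 1 of 1074 sites was higher and 36 were lower (0.0931% and 3.35%). Over all sites within 1 kb of a TSS the shares were 1.53% and 3.66%. Between 1001 and 1999 bases after the TSS 12 of 342 sites were higher and 37 lower (3.51% and 10.8%). Over the sites at that distance in protein-coding genes the shares were 2.99% and 5.23%. Many of the lower Frizzled calls lie in runs of neighbouring CpGs in Fzd2, Fzd5, Fzd8 and Fzd9. CpGs of a run can share their reads, so these calls are not separate observations. Farther from the TSS higher calls outnumbered lower ones, except between 5000 and 9999 bases. There 0 of 12 sites were higher and 1 was lower. Between 2000 and 4999 bases 11 of 108 sites were higher and 7 lower (10.2% and 6.48%), against 5.47% and 5.45% in protein-coding genes. Between 20000 and 39999 bases 9 of 61 were higher and none lower (14.8% and 0%), against 8.52% and 5.37%. That range holds sites of Fzd3 and Fzd6 alone, the longest Frizzled genes, so distance and gene cannot be told apart there. Several of its higher calls are neighbouring coding CpGs of Fzd3.

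Fzd9, a receptor expressed in hippocampal progenitors, and Fzd5, a receptor of eye and vessel development, each had 5 sites higher and 13 lower, of 218 and 187 measured. In the printed Fzd9 stretch the CpG 1303 bases after the TSS fell on both strands, from 100% of 15 reads in CT to 22.6% of 62 in E3 on the plus strand (p = 2.2e-08, Fisher's exact test) and from 64.7% of 17 to 33.8% of 65 on the minus strand (p = 0.0276, Fisher's exact test). The CpG 1319 bases after the TSS fell from 86.7% to 28.1% and from 58.8% to 19.05%. Fzd9 also held the member site with the third smallest p among those higher. This promoter cytosine, 738 bases after the TSS, had 72.4% of 58 reads in E3 and 0% of 22 in CT on the plus strand (p = 8.21e-10, Fisher's exact test). Its minus strand was called the other way, with 23.5% in E3 and 75% in CT. In Fzd5 a coding CpG 1553 bases after the TSS fell on both strands, from 73.7% of 19 reads to 4.35% of 46 on the minus strand (p = 1.88e-08, Fisher's exact test) and from 31.8% of 22 to 5% of 40 on the plus strand (p = 0.00721, Fisher's exact test).

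Fzd8 had 1 site higher and 15 lower of 229, and Fzd2 had 2 and 12 of 158. The leading Fzd8 site, 458 bases after the TSS, had 0% of 77 reads in E3 and 66.7% of 12 in CT on the minus strand (p = 7.01e-09, Fisher's exact test), and 0% in both libraries on the plus strand. Fzd1 had 4 sites higher and 11 lower of 259, Fzd10 1 and 7 of 132 and Fzd4, the receptor of Norrin in retinal vessels, 2 and 6 of 71. The 2 leading Fzd4 sites lay 946 and 1023 bases after the TSS on the minus strand. They had 10% of 40 and 10.5% of 38 reads in E3 and 100% of 14 in CT at either site (p = 9.43e-10 and 1.73e-09, Fisher's exact test). On the plus strand the levels were 6.25% in E3 and 0% in CT at the first and 17.5% and 0% at the other, which was called higher. At 1023 bases the minus-strand reads were 2 times those of a neighbouring CpG in both libraries. With that neighbour's numbers the p was 5.47e-05 (Fisher's exact test, an alternative chosen after seeing the data).

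Fzd3, Fzd6 and Fzd7 had more sites higher than lower, with 10, 3 and 4 sites higher and 2, 0 and 2 lower. Fzd6 orients hair. Fzd3 guides axons and acts in planar polarity. A coding CpG of Fzd3 had 94.4% of 18 reads in E3 and 33.3% of 12 in CT on the plus strand (p = 0.000638, Fisher's exact test), and 78.8% of 33 against 18.2% of 33 on the minus strand (p = 1.43e-06, Fisher's exact test). Another coding cytosine of Fzd3, on the minus strand, had 92.6% of 27 reads in E3 and 5.56% of 18 in CT (p = 2.6e-09, Fisher's exact test). The plus strand of that CpG had 88.9% in E3 and 100% in CT.

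The co-receptors, both long genes, had mean levels of 55.2% in E3 and 55.7% in CT. Of their 345 sites, 124 lay within 1 kb of the TSS. Of the same 345 sites 20 rose and 14 fell (5.80% and 4.06%), against 6.18% and 4.83% over all sites. Lrp5, known for its control of bone mass, had 13 sites higher and 8 lower of 235, and Lrp6 7 and 6 of 110. An intron CpG of Lrp5 rose on both strands, with 100% of 29 reads in E3 and 0% of 5 in CT on the minus strand (p = 3.59e-06, Fisher's exact test) and 100% of 18 against 68.8% of 16 on the plus strand (p = 0.0157, Fisher's exact test). Another Lrp5 intron CpG fell on both strands, from 100% in CT to 70% and 80% in E3.

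Promoter levels, with reads summed over all sites within 1 kb of the gene start, moved by less than 10 points in every tested member but Lrp5. Of the 31 members, 28 had the 5 sites needed for a test. Wnt6 and Wnt8b had no measured site around the RefSeq gene start, which in Wnt6 is far upstream of its curated transcript, and Wnt7a had 4. Summed levels were under 5% in both libraries in 17 of the 28. Wnt8a, a ligand of the early embryo, was methylated, at 89.7% in E3 and 92.4% in CT. By Fisher's exact test with a Benjamini-Hochberg adjusted p under 0.05 over 18369 promoters and a difference of at least 10 points, none was called higher and 1 lower, and of all promoters 4.20% were called higher and 4.71% lower. Without the 10-point minimum, 4 member promoters were higher and 4 lower at that adjusted p (14.3% each), against 16.1% and 14.5% of all promoters. A read counts once at every CpG it covers, so linked counts enter these sums as if separate, and p-values are too small.

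The promoter called lower was that of Lrp5, with 10.05% of 2050 reads in E3 (95% Wilson interval 8.82 to 11.4) and 20.6% of 751 in CT (17.9 to 23.7). This call rests on how reads were weighted and on the window. The mean over its 81 sites was 10.9% in E3 and 12.3% in CT, and within 500 bases of the TSS the difference was 0.0756 points. The next largest falls were in Wnt16, with 1.45% of 138 reads in E3 and 10.3% of 58 in CT over 6 sites, and Wnt3, with 4.83% of 2010 and 8.49% of 1036. The Wnt3 difference of -3.67 points was -0.0884 as a mean over sites and -0.86 for the 1 kb before the TSS. The largest rises were in Wnt5a, with 13.8% of 806 reads in E3 and 7.92% of 404 in CT, Wnt10a, with 9.38% of 224 and 5.17% of 116, and Wnt5b, with 7.75% of 2580 and 4.43% of 925. Of these, Wnt10a did not reach the adjusted p (0.362, Fisher's exact test). With at least 10 reads a site, Wnt5a was 2.34 points and Wnt5b 1.70 points higher (adjusted p = 0.382 and 0.205, Fisher's exact test), and Wnt5b was -1.14 points as a mean over sites.

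**Figure D3:**
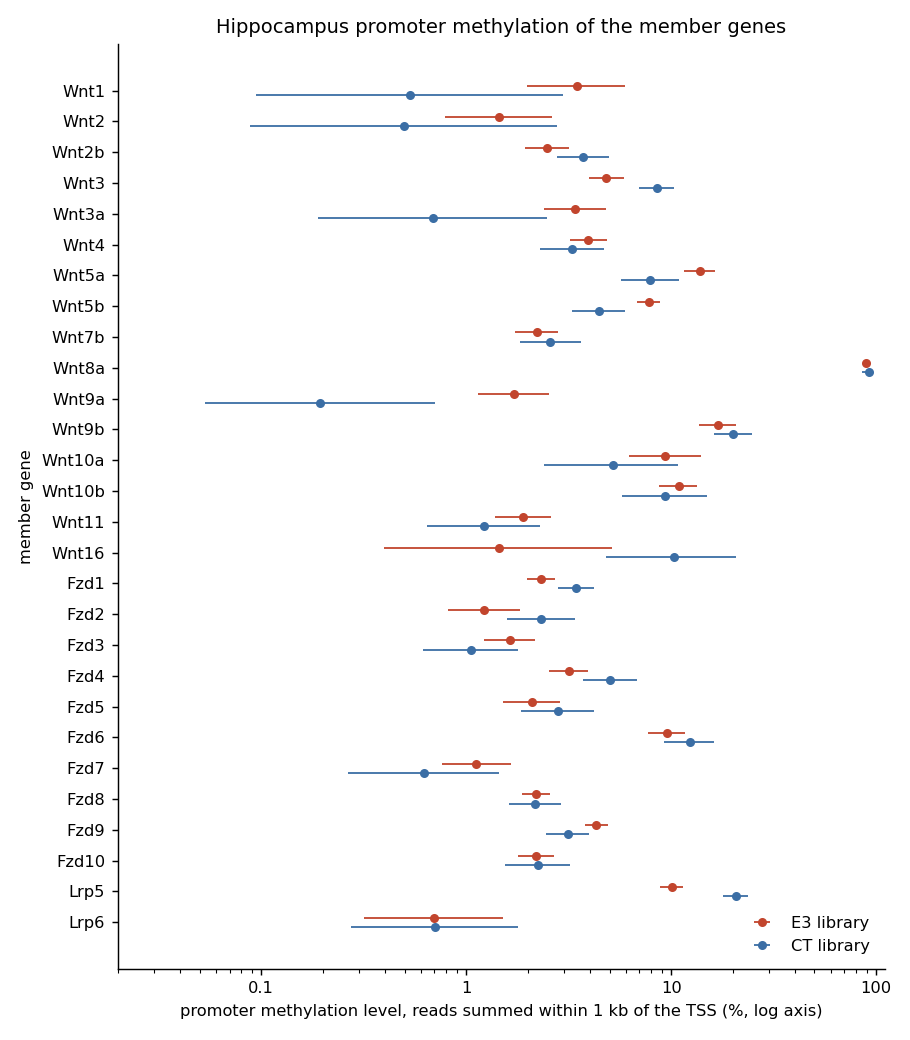
Promoter methylation level (%, log axis) of the 28 testable members in the hippocampus, reads summed within 1 kb of the TSS, with E3 in red, CT in blue and bars for 95% Wilson intervals, which cover counting error only. Most promoters lie under 5% in both libraries, Wnt8a lies near 90%, and Lrp5 has the widest gap in points.

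Starts of curated RefSeq transcripts, an alternative chosen after seeing the data, gave 35 promoters of members, with none called higher and 1 lower, against 2.90% and 3.66% of the 17175 curated starts of all genes. The latter was the inner start of Wnt5b, shown in the Wnt5b stretch, with 24.3% of 325 reads in E3 and 41.1% of 175 in CT over 14 sites (adjusted p = 0.00109, Fisher's exact test). As a mean over its sites the level was 31.7% in E3 and 37.9% in CT, a gap under the 10-point minimum. The inner start of Wnt7b that lies nearest to the gene end had 7.20% of 1514 reads in E3 and 0.554% of 902 in CT (adjusted p = 3.92e-15, Fisher's exact test), with 5 sites higher and none lower. It stayed under the 10-point minimum. At a curated Wnt5a start downstream of the gene start the direction was the opposite of that at the gene start, with 1.14% of 1311 reads in E3 and 4.68% of 662 in CT. The curated Wnt6 start was unmethylated, with 3.02% of 1125 and 0.795% of 629.

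A CpG is normally methylated on both strands, and the strands gave an internal check of the calls. Of the 412 called member sites, 264 had the other strand measured. It was called in the same direction at 40 of these sites (15.2%; 15.5% over all called sites) and in the opposite direction at 22. Over all CpG sites, 112180 called sites had the other strand measured, and at 9062 of them it was called in the opposite direction. The median difference on the other strand was 0 points for sites called higher and for sites called lower. Of 1341 member CpGs with both strands measured, 6 were called higher on both and 14 lower on both (0.447% and 1.04%), where over all such CpGs the shares were 0.914% and 0.816%. The 6 higher were in Wnt3a, Wnt5a, Wnt7a, Wnt9b, Fzd3 and Lrp5. The 14 lower were 3 each in Wnt5b and Wnt7b, 2 each in Wnt6, Fzd5 and Fzd9, and 1 each in Fzd2 and Lrp5. With the read numbers of a neighbouring CpG that had fewer by 2 times in both libraries, the p of 1 Wnt7b CpG became 0.123 and 0.209 on its strands, that of the falling Lrp5 CpG 0.0613 and 0.155, and that of the Wnt7a plus strand 0.166 (Fisher's exact test). Of 46 sites named for small p or called on both strands, 14 had such doubled reads, and 9 of the 14 kept a p under 0.05. With the reads of both strands summed, 125 of 3340 member CpGs were higher and 211 lower (3.74% and 6.32%), against 6.73% and 5.36% over all CpGs.

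**Figure D4:**
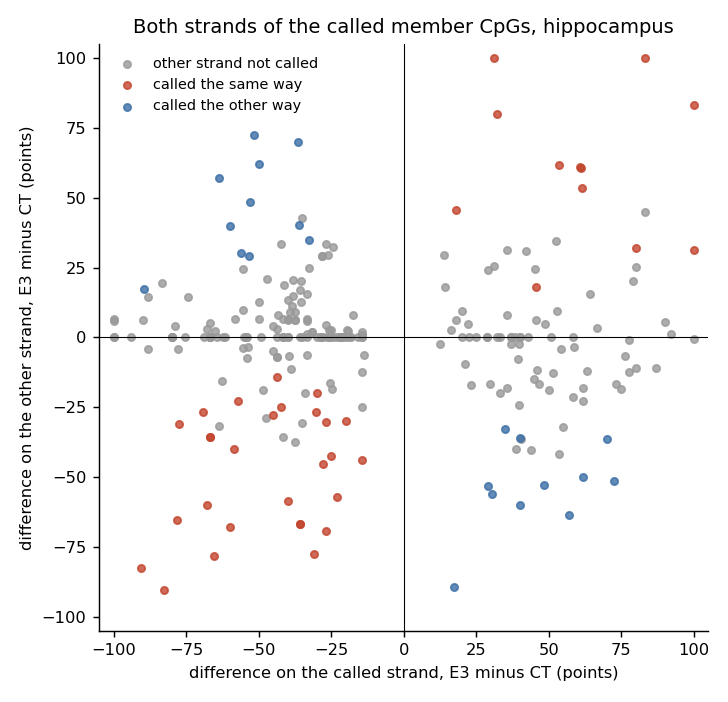
Difference between E3 and CT in points on the called strand (horizontal) and on the other strand of the same CpG (vertical) for the called member sites of the hippocampus with both strands measured. Most points lie close to 0 on the vertical axis; red points, called the same way, lie in the lower left and upper right, and 22 blue points were called the other way.

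In the frontal cortex the deposited table lists called CpGs alone, with levels and no depth, so its values are given as listed with no interval or test. It holds 25 CpGs of 16 members, 6 of them higher and 19 lower in E3 (24% and 76%), and of all 9731 listed CpGs 36.3% were higher and 63.7% lower. Levels were low, with medians of 4.08% in E3 and 21.1% in CT, against 8.33% and 22.5% over all listed CpGs. Of the 25, 14 lay in CpG islands as the authors marked them (56%, against 25.01% of all listed CpGs), and so did all 10 Frizzled CpGs.

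Among the ligands, 3 listed CpGs were higher and 11 lower. A Wnt3a coding CpG went from 16.7% in CT to 68.2% in E3, and a Wnt3a intron CpG from 38.5% to 0%. Wnt7b had a coding CpG at 0% in CT and 41.5% in E3, and an intron CpG, 83 bases from the leading hippocampus CpG of that gene, at 26.1% and 0%. Wnt2 fell from 40% to 0% at a CpG that the authors place in its promoter, Wnt10a from 37.0% to 1.47% and Wnt6 from 34.1% to 9.43%. Wnt3 had a pair of intron CpGs that fell, from 26.1% to 4.08% and from 21.1% to 0%, and so did Wnt11, from 26.7% to 3.92% and from 21.3% to 6.06%. Wnt5b fell from 25.6% to 5% at a capital CG of its printed stretch and Wnt4 from 18.2% to 3.25%. Wnt5a rose from 3.39% to 16%.

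Among the Frizzled receptors, 3 listed CpGs were higher and 7 lower. Fzd2 held 3 neighbouring coding CpGs that rose, from 7.69% to 22.0%, from 4.49% to 17.9% and from 5.62% to 16.8%, and 1 that fell from 20% to 2.73%. The first of the rising CpGs lay 49 bases from the coding Fzd2 CpG that fell on both strands in the hippocampus. There the plus strand went from 25% of 16 reads in CT to 0% of 39 in E3. The minus strand went from 44.8% of 29 to 2.38% of 42. Fzd9 had a pair of CpGs 7 bases apart, which fell from 41.0% to 20.7% and from 28.9% to 13.5%. Fzd8 fell from 15.3% to 0% and from 19.8% to 4.67%, Fzd7 from 25.8% to 2.63% and Fzd5 from 17.4% to 0%. Lrp5 was the co-receptor listed, with an intron CpG that fell from 15.4% to 0%.

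**Figure D5:**
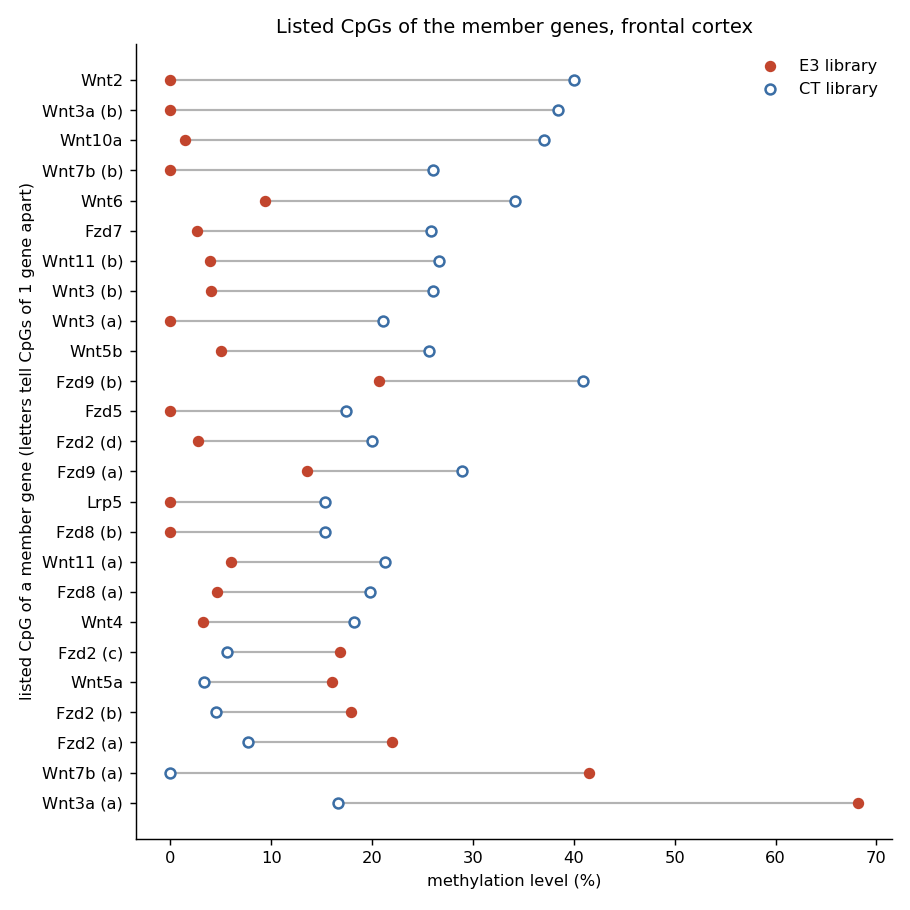
Methylation level (%) in the E3 (filled red) and CT (open blue) libraries of the frontal cortex at the 25 listed CpGs of 16 member genes, ordered by the difference, with a line joining the libraries. The 19 CpGs at the top were lower in E3 and the 6 at the bottom higher; the widest gaps were in Wnt3a, Wnt7b and Wnt2.

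In the hippocampus 19 of these 25 CpGs were measured with both strands summed. Of these, 2 were called, in the same direction as in the frontal cortex. The Wnt3a intron CpG that was at 0% in E3 and 38.5% in CT of the frontal cortex had 0% of 22 reads in E3 and 81.8% of 22 in CT of the hippocampus (p = 1.42e-08, Fisher's exact test). The Wnt7b coding CpG had 59.1% of 22 reads in E3 and 0% of 11 in CT there (p = 0.0016, Fisher's exact test). The Wnt3a coding CpG had 46.7% of 15 reads against 14.3% of 7, which was not called. None of the 9 Frizzled CpGs that were measured in the hippocampus was called. Of all listed CpGs, 6651 were measured and 1932 called in the hippocampus, 959 in the same and 973 in the opposite direction. Whether the libraries of the 2 tissues came from the same animals is not given in the sources used here.

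The other genes of the pathway, 56 genes in a list fixed by role, had 416 of 7927 sites higher and 387 lower (5.25% and 4.88%), and 55 of them had at least 1 called site. Over all sites 6.18% were higher and 4.83% lower, the shares to set beside those of each role. Secretion genes (Porcn, which attaches the lipid, and Wls, the carrier) had 4 sites higher and 4 lower of 83 (4.82% each), with 4 and 2 in Porcn and 0 and 2 in Wls. Secreted inhibitors had 29 and 32 of 808 (3.59% and 3.96%), led by Sfrp1 with 6 and 8 and, with 11 called sites each, Sfrp2 with 2 and 9 and Wif1 with 7 and 4. R-spondins, their Lgr receptors and Ndp, which enhance the signal, had 33 and 44 of 815, led by Lgr6 with 9 and 15 and Rspo4 with 5 and 8. Genes of receptor turnover had 27 and 13 of 469 (5.76% and 2.77%), led by Kremen2 with 10 and 6 and Rnf43 with 9 and 1.

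The group of other Wnt receptors and planar polarity genes had 169 sites higher and 143 lower of 2538 (6.66% and 5.63%), the most of any role. Ror2, a receptor for Wnt5a, had 59 higher and 29 lower of 446, more called sites than any of the 31 members, and Celsr1 21 and 22 of 415. Intracellular genes had 43 and 40 of 1189 (3.62% and 3.36%), led by Axin2, a scaffold of the β-catenin destruction complex, with 12 and 14, and Gsk3b with 7 and 8. Nuclear genes had 111 and 111 of 2025 (5.48% each), led by Lef1 with 38 and 27 and Tcf7l1 with 28 and 33. Of the 52 promoters of these genes that could be tested, 1 was called higher and 1 lower, where of all promoters 4.20% were called higher and 4.71% lower. Axin2 had 18.7% of 107 reads in E3 and 0% of 86 in CT over 7 sites (adjusted p = 4.84e-05, Fisher's exact test). Ndp, an X-linked gene, had 24.2% of 132 and 55.1% of 78 over 5 sites (adjusted p = 0.000128, Fisher's exact test). Both promoters were chosen after their values were seen. In the frontal cortex 30 CpGs of 20 of these genes were listed, 14 higher and 16 lower (46.7% and 53.3%), against 36.3% and 63.7% of all listed CpGs.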

How the data were processed

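DNA methylation was measured in 4 libraries of mouse brain, 1 E3 and 1 CT library each of frontal cortex and hippocampus. The authors cut DNA with MspI and TaqαI before bisulfite treatment and aligned the reads to mm10 with Bismark. For the hippocampus, the authors deposited the total read counts per cytosine and strand and the methylated fraction to 2 decimals, with columns of p-values and differences that were not used. For the frontal cortex they deposited the methylated fraction at called sites, with p-values and differences that were not used either; the depth there is unknown. CHG and CHH tables were not used here.

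Methylated read counts were rebuilt as fraction times reads, which can be off where a site has over 100 reads (0.641% of member sites in E3, 0.0855% in CT). Sites needed 5 reads in both libraries. Mean depth at member sites was 30.4 reads in E3 and 11.8 in CT. Thresholds followed the paper's methods. A gene's window ran from 1 kb before its RefSeq start (GRCm38.p6) to its end, and 63 sites of neighbouring members were counted once in the totals. A gene start can be that of a predicted transcript. Distances are counted from the gene start. Fisher's exact tests were checked against scipy 1.17.1 and tested on simulated data. Reads may be PCR copies, so intervals cover counting error only. In the frontal cortex, genes were taken from the authors' promoter, exon and intron columns.

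The members, lists and tests were chosen with earlier results of these data known. Values are given for the 10 members with most called sites, the 3 largest promoter changes in each direction, the 5 sites of smallest p per direction, every member listed in the frontal cortex and up to 2 genes per role of the other pathway genes; further genes are named as chosen after their values were seen, as are the CpGs called on both strands. Alternatives were other minimums of reads, difference and sites, adjusted p-values, summed strands, the highest coverage left out, other windows, and means over sites; curated starts, calls on both strands, thinned reads and a neighbour's read numbers were added after seeing the data. With 1 library per group no replicate could be left out. The sequence around the Fzd3 CpG is not reported here.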

Additional observations from a re-analysis of the deposited data

Results flagged for a closer look

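At 2 CpGs of other pathway genes the tissues moved in opposite directions; the difference between the tissues was not tested. In Prickle2, a planar polarity gene, a CpG rose from 11.8% in CT to 66.7% in E3 in the frontal cortex, and in the hippocampus it had 46.7% of 15 reads in E3 and 100% of 10 in CT, a difference of -53.3 points (p = 0.00766, Fisher's exact test). In Rspo4, a secreted enhancer of Wnt signals, a CpG fell from 86.1% to 40% in the frontal cortex, and in the hippocampus it had 81.8% of 22 reads in E3 and 0% of 21 in CT, a difference of 81.8 points (p = 1.42e-08, Fisher's exact test). No member gene had such a CpG.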

How the results depend on the processing

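Counts of calls followed depth and threshold, and lower calls outnumbered higher ones among the members in every alternative run on the hippocampus sites. Member sites called higher and lower numbered 101 and 159 with at least 10 reads (4.53% and 7.13%, against 7.54% and 6.55% of all sites), 31 and 58 with at least 20 (6.02% and 11.3%, against 9.15% and 9.21%), 54 and 89 with adjusted p-values (1.15% and 1.90%, against 2.04% and 1.31%), 30 and 45 after thinning to 10 reads (1.35% and 2.02%, against 2.66% and 2.06%) and 6 and 14 on both strands (0.447% and 1.04%, against 0.914% and 0.816%); a 25-point minimum, summed strands, the highest coverage left out and the transcribed part alone stayed within 1.5 times. The other pathway genes had 229 and 237 with at least 10 reads (6.09% and 6.31%) and 128 and 118 with adjusted p-values (1.61% and 1.49%).

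The member promoters called numbered 1 higher and 0 lower within 500 bases of the TSS (Wnt5b, 11 points), where all promoters gave 3.18% and 4.15%, and 1 higher and 0 lower for the 1 kb before it (Wnt5a, 11.7 points), against 4.19% and 4.99%. The Lrp5 difference was 0.0756 points within 500 bases, -10.6 and no longer called for the 1 kb before the TSS, -9.54 at the curated start and -1.33 as a mean over sites. Wnt5b was -1.14 as a mean over sites and -16.8 at its inner curated start, and Wnt5a was -3.54 at its first curated start. On the opposite strand the difference was -51.5 points at the Fzd9 site, -11.1 at the Fzd3 site, 6.25 and 17.5 at the Fzd4 sites and 0 at the Wnt7b site called on 1 strand. Frontal cortex CpGs that moved by 25 points or more included 6 member CpGs, 2 higher and 4 lower (33.3% and 66.7%). Of all listed CpGs past that limit, 41.6% were higher and 58.4% lower. The cause of these shifts was not tested. No paired analysis was possible because each group has 1 library, and a CT depth of 10 reads limits which differences can be seen.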
